A study of Cricetulus griseus with 6 samples.

Results

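Without putrescine, CHO-K1 cells held far less mRNA for most regulators of the ATF4 and CHOP stress response, while Atf4 mRNA itself did not pass the test and Atf5 mRNA rose. Of the 10 genes chosen by symbol as ATF4 and CHOP stress regulators, 8 were named on the array, with 9 probe sets among 29700. In all, 14899 genes were named. The other members, Cebpb and Cebpg, matched no single-symbol probe set and were not analysed here. Members were taken by gene symbol alone, with no filter on level, so all 9 probe sets were tested. The symbols, and the gene lists used below, were chosen with earlier results of these data known. The experiment compared 3 suspension cultures of CHO-K1, an established line from the ovary of the Chinese hamster, in SFM-F10 medium without putrescine (NoPUT) with 3 in the same medium supplemented with 1 mg/l putrescine (+PUT). Putrescine is the diamine from which spermidine and spermine are made, and per the design text the medium without it held no other polyamine and no ornithine. Flasks of both groups were seeded at 200000 cells/ml in 50 ml and harvested on day 3, and each culture was measured on its own Affymetrix whole-transcript array. All 6 cultures came from the same line, so the comparison holds for CHO-K1 in this medium.

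ATF4 is the transcription factor of the integrated stress response. Kinases that sense amino acid shortage, misfolded protein in the endoplasmic reticulum (ER), double-stranded RNA or heme shortage phosphorylate the initiation factor eIF2, which slows protein synthesis in general but raises translation of the ATF4 mRNA. ATF4 then binds DNA as a dimer with C/EBP family proteins and switches on genes for amino acid supply and, when stress persists, CHOP, ATF3, TRIB3 and CHAC1. Much of this control acts on protein, and the arrays measured RNA alone. The roles given for the genes below are those known in human and mouse cells.

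Array values were taken to be on a log2 scale, so a difference of 1 stands for a 2-fold difference. Arrays of the same group correlated at 0.9956 to 0.9962 and arrays of different groups at 0.9856 to 0.9878 (Pearson r across probe sets). Transcripts expected in CHO-K1, such as Vim and Actb, lay at a median level of 12 over 9 genes. Their mean levels ran from 5.83 without and 6.08 with putrescine (Myl9) to 13.05 and 12.96 (Eef1a1). Of these 9, Lgals1 (0.89), Tpm1 (0.46), Cav1 (0.37) and Actg1 (0.35) rose without putrescine, 5 did not pass and 0 fell (0 at an unadjusted limma p under 0.05). The share that rose was 44.4%, against 15.8% of all named genes, of which 14.2% fell. Of 9 ovary markers 4 lay below 3.78, the median level of 25 markers of other tissues, which serves here as the mark of a dim probe set, and the ovary markers as a whole had a median of 3.95. Among them Star rose by 0.67 and Gdf9, a gene below the dim mark, fell by 0.58. The call of Gdf9 was lost without +PUT replicates 1 and 2 and NoPUT replicates 2 and 3, and that of Actg1 without +PUT replicate 2 and NoPUT replicate 1 (limma adjusted p up to 0.0688 and 0.0734 over the alternatives). The mean over the other-tissue markers was 3.83 to 3.86 in NoPUT arrays and 3.90 to 3.92 in +PUT arrays. None of them rose (0 of 25, and 0 at an unadjusted limma p under 0.05), and 1, the cardiac troponin gene Tnnt2, fell by 1.30. The part of these markers in the results was not tested. An array of many cells cannot tell fewer expressing cells from less RNA per cell.

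Across the members, 7 of 9 probe sets, of 6 genes, were lower without putrescine, 1 was higher and 1 did not pass the test (limma, Benjamini-Hochberg adjusted over all probe sets, threshold 0.05). Over the whole array 11.2% of probe sets were called lower and 13.2% higher, 24.4% in all. Of the 9 probe sets 6, of 5 genes, were called and at least 2-fold lower, against 1.38% of all probe sets. The NoPUT and +PUT cultures did not overlap at any of the 9 member probe sets, against 37.5% of all probe sets. The median log2 difference over the member genes was -1.58, and over all named genes 0.01. As the members were chosen with earlier results known, these comparisons with the whole array describe the members and are no test. With 3 cultures per group an exact permutation test of a single probe set cannot give a two-sided p below 0.1, the value it gave for each of the 9, so calls rest on the limma fit across the array.

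**Figure D1:**
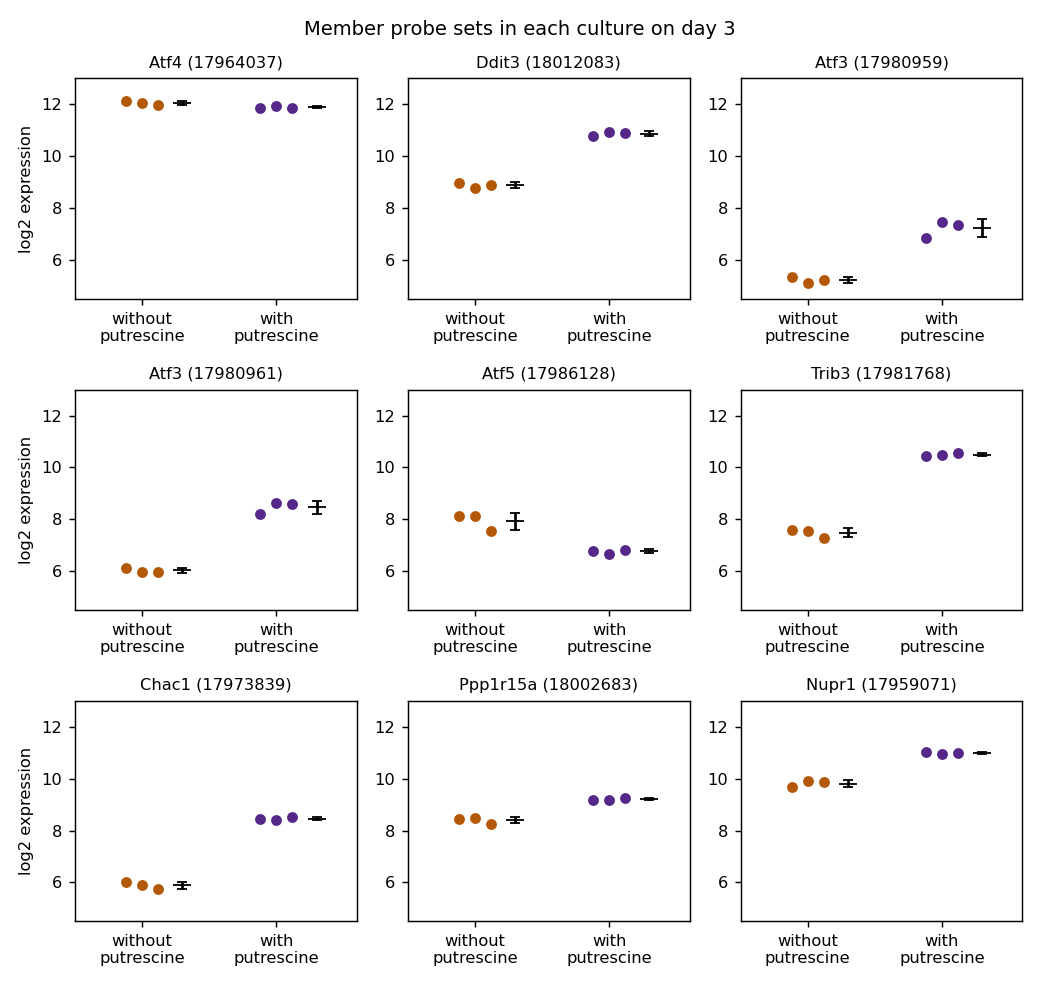
Log2 expression (y axis) of the 9 member probe sets in the 3 cultures without putrescine (left, orange) and the 3 with putrescine (right, purple), with the group mean and SD as a black bar beside the points. Atf4 lies near 12 in all cultures, Atf5 is higher without putrescine, and the 7 other probe sets are lower without it.

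Atf4 mRNA was abundant in every culture and differed little. Its probe set (17964037) read 12.13, 12.05 and 11.99 in the NoPUT cultures, against 11.87, 11.94 and 11.87 in the +PUT cultures. All 3 NoPUT values were above all 3 +PUT values, by a gap of only 0.05. The group means were 12.06 ± 0.07 without and 11.89 ± 0.04 with putrescine (SD, n = 3 each), a log2 difference of 0.16 (95% interval -0.02 to 0.35; limma adjusted p = 0.206). The interval leaves room for a small rise and for next to none, but not for a fall of the size seen at the genes that follow. With an intensity trend and a robust prior in limma the same difference passed (adjusted p = 0.0261, in a range of 0.0261 to 0.408 over 11 alternatives).

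The partner factor encoded by Ddit3, known as CHOP, is induced by ATF4 and pairs with C/EBP proteins to drive genes of prolonged ER stress. Ddit3 (probe set 18012083) read 8.99, 8.77 and 8.90 in the NoPUT cultures, against 10.79, 10.95 and 10.89 in the +PUT cultures. Every NoPUT culture lay at least 1.80 below every +PUT culture. Ddit3 was thus 3.97-fold lower without putrescine (log2 difference -1.99, SE 0.09, 95% interval -2.20 to -1.78; limma adjusted p = 1.77e-05).

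Atf3 encodes a bZIP factor that is induced by many stresses and feeds back on their transcriptional response. It was measured by 2 probe sets, and both fell. The brighter one (17980961) read 6.14, 5.97 and 5.99 without putrescine, against 8.19, 8.64 and 8.58 with it, and was 5.41-fold lower (log2 difference -2.44, SE 0.13; limma adjusted p = 2.08e-05). The dimmer one (17980959) read 5.36, 5.13 and 5.25 without putrescine, against 6.86, 7.48 and 7.37 with it, and was 3.97-fold lower (log2 difference -1.99, SE 0.16; limma adjusted p = 7.93e-05). The 95% intervals of the probe sets, -2.73 to -2.15 and -2.35 to -1.63, overlapped. In both, +PUT replicate 1 was the lowest of its group, and without it the brighter probe set differed by -2.58 and the dimmer one by -2.18. The NoPUT mean of the dimmer probe set was 1.47 above the dim mark of 3.78, the smallest such margin among the members.

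Atf5 was the member that rose. ATF5 is a close relative of ATF4, is translated under the same kind of upstream reading frame control and is linked to mitochondrial protein stress. Its probe set (17986128) read 8.13, 8.12 and 7.56 in the NoPUT cultures, against 6.8, 6.68 and 6.83 in the +PUT cultures. NoPUT replicate 3 lay below the other NoPUT cultures yet 0.73 above the highest +PUT culture. The means were 7.94 ± 0.33 without and 6.77 ± 0.08 with putrescine (SD, n = 3 each), a 2.24-fold rise (log2 difference 1.17, SE 0.15, 95% interval 0.82 to 1.51; limma adjusted p = 0.000767). Without NoPUT replicate 3 the difference was 1.36, and with any other array left out it was 1.07 to 1.20.

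Trib3, which encodes a pseudokinase induced by ATF4 and CHOP that binds ATF4 and dampens it, showed the largest difference among the members. It read 7.61, 7.56 and 7.29 in the NoPUT cultures, against 10.44, 10.49 and 10.56 in the +PUT cultures (probe set 17981768). No NoPUT culture came within 2.83 of a +PUT culture. Trib3 was 8.06-fold lower without putrescine (log2 difference -3.01, SE 0.10, 95% interval -3.25 to -2.77; limma adjusted p = 1.13e-05), the second largest fall over all probe sets by fitted difference (rank 2).

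Chac1 encodes an enzyme that cleaves glutathione and is a target of the ATF4 and CHOP branch. Its probe set (17973839) read 6.0, 5.92 and 5.73 without putrescine, against 8.43, 8.41 and 8.54 with it. The groups lay 2.41 apart at their closest. Chac1 was 5.97-fold lower (log2 difference -2.58, SE 0.10, 95% interval -2.80 to -2.36; limma adjusted p = 1.16e-05). Its interval overlapped that of the brighter Atf3 probe set and did not overlap that of Ddit3.

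Ppp1r15a, also known as GADD34, encodes the stress-induced subunit that brings protein phosphatase 1 to phosphorylated eIF2 and so ends the response. It read 8.46, 8.47 and 8.27 in the NoPUT cultures, against 9.19, 9.18 and 9.25 in the +PUT cultures (probe set 18002683). It was 1.75-fold lower without putrescine (log2 difference -0.81, SE 0.09, 95% interval -1.01 to -0.60; limma adjusted p = 0.000338), the smallest fall among the members. Its constitutive relative Ppp1r15b differed by -0.33 on the log2 scale, short of the threshold (limma adjusted p = 0.0676). With quantile scaling, dim probe sets left out, or the intensity trend and robust prior it passed (limma adjusted p down to 0.0251).

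Nupr1 encodes a small chromatin protein that is induced by ATF4 in stressed cells. It read 9.67, 9.91 and 9.85 without putrescine, against 11.01, 10.93 and 10.98 with it (probe set 17959071). The groups were separated by 1.02. Nupr1 was 2.24-fold lower (log2 difference -1.16, SE 0.09, 95% interval -1.37 to -0.95; limma adjusted p = 7.91e-05). Its interval overlapped that of Ppp1r15a and lay wholly above those of Ddit3, Atf3, Trib3 and Chac1.

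**Figure D2:**
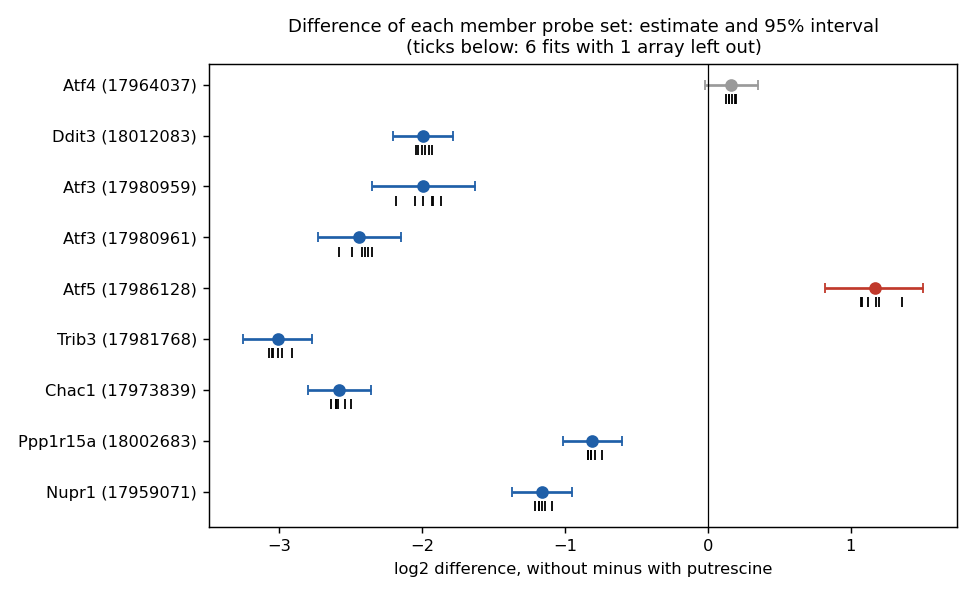
Log2 difference without minus with putrescine (x axis) for the 9 member probe sets (rows), with 95% intervals, and as ticks beneath each the 6 fits with 1 array left out. Blue marks probe sets called lower, red called higher and grey not called. Trib3, Chac1, Atf3 and Ddit3 lie between -3.01 and -1.99, Nupr1 and Ppp1r15a at -1.16 and -0.81, Atf4 at 0.16 and Atf5 at 1.17.

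By the size of the difference the members therefore fell into an order with Trib3 lowest, then Chac1, Atf3, Ddit3, Nupr1 and Ppp1r15a, followed by Atf4 and Atf5. Neighbours whose intervals overlapped were Trib3 and Chac1, which met at their edges, Chac1 and Atf3, Atf3 and Ddit3, and Nupr1 and Ppp1r15a. Within groups, NoPUT replicate 3 was the lowest NoPUT culture at 5 of the 9 probe sets, and +PUT replicate 1 the lowest +PUT culture at 5 of the 9. At Atf4, counted here, +PUT replicate 1 was tied with +PUT replicate 3 at 11.87.

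The annotation placed some members beside or over other genes, so the values of these neighbours were set beside theirs. In the RefSeq annotation of the CriGri-PICRH-1.0 assembly, which may differ from the build of the array, Ddit3 overlaps Mars1, the methionyl-tRNA synthetase gene. Mars1 was 1.69-fold lower without putrescine (log2 difference -0.76, SE 0.08, limma adjusted p = 0.000306). Atf5 overlaps Nup62 and Il4i1 there, and neither rose. Nup62 had a difference of -0.18 and did not pass, and both probe sets of Il4i1 were lower, by -0.77 and -0.51, from levels of 5.28 or less in the +PUT cultures. The genes on either side of Atf4, Mief1 and Rps19bp1, had differences of -0.11 and 0.01 and did not pass. Over all named genes 30.0% were called. Of 11 measured genes flanking a member, 4 were called, near that share. These were Tbc1d17 beside Atf5 (-0.95), Ino80 beside Chac1 (-0.81), Rbck1 beside Trib3 (0.66) and Mbd6 beside Ddit3 (0.55). The call of Mbd6 was lost without +PUT replicates 2 and 3 and NoPUT replicates 1 and 2, and that of the dimmer Il4i1 probe set without NoPUT replicate 1 (limma adjusted p up to 0.11 and 0.0569 over the alternatives). The other members overlapped no gene in that table. These neighbours were looked at after the members' values were known.

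The genes whose profile over the 6 arrays lay closest to that of Ddit3, each centred on its own mean, were Tmem140, Klhl24 and Bfar. Their root mean square distances from Ddit3 were 0.059, 0.089 and 0.091 on the log2 scale, with differences between groups of -1.89, -1.97 and -1.94. Bfar encodes an ER membrane protein that restrains cell death. For Trib3 the closest were Slc6a9, the gene of a glycine transporter, Gtpbp2 and Ypel3, at distances of 0.162, 0.170 and 0.171 and with differences of -2.76, -2.70 and -2.73. Such likeness rests mainly on the gap between the groups, which all of these genes share.

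Genes that ATF4 or CHOP are known to activate mostly fell with the members. Of 59 measured targets outside the members, 37 fell, 4 rose and 18 did not pass, with a median log2 difference of -0.55. Among all named genes 14.2% fell and 15.8% rose, and among these targets 62.7% fell and 6.78% rose. The targets with the smallest p were Gtpbp2, Herpud1, Slc6a9 and Pycr1. Gtpbp2, a GTP-binding protein gene linked to rescue of stalled ribosomes, was at 6.48 ± 0.06 without and 9.18 ± 0.05 with putrescine (SD, n = 3 each; 6.51-fold lower, limma adjusted p = 6.57e-06). Herpud1, which serves degradation of ER proteins, was 4.44-fold lower and Pycr1, which makes proline, 3.29-fold lower. The dimmer probe set of Pycr1 was 2.39-fold lower. Asns, the asparagine synthetase gene often used as a readout of ATF4, was at 8.95 ± 0.18 without and 10.54 ± 0.02 with putrescine (SD, n = 3 each), a log2 difference of -1.60.

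The targets that rose were Rgs2, Cdsn, Aldh18a1 and Got1. Rgs2, a regulator of G protein signalling, was 2.16-fold higher (5.53 ± 0.17 without and 4.42 ± 0.43 with putrescine, SD, n = 3 each), and Cdsn, an adhesion protein gene of skin, 2.14-fold higher. Aldh18a1, which acts upstream of Pycr1 in proline synthesis, was at 4.39 without and 3.60 with putrescine, where the value with putrescine was below the dim mark. Got1, a transaminase gene, was 1.52-fold higher. Some well known targets did not pass: Psat1, of serine synthesis, had a log2 difference of -0.24 (limma adjusted p = 0.0543), the amino acid transporter gene Slc7a5 -0.09 and the mTORC1 inhibitor gene Ddit4 -0.13. Asns, Psat1, Slc7a5 and Ddit4 were chosen for mention after their values were seen. So were Eif2ak4, Gcn1, Ppp1ca, Ppp1cb, Ppp1r15b, Cebpd, Cebpe, Cebpz, Fosl1, Fosl2, Trib2, Chac2, Bcl2l11, Myl9 and Eef1a1.

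**Figure D3:**
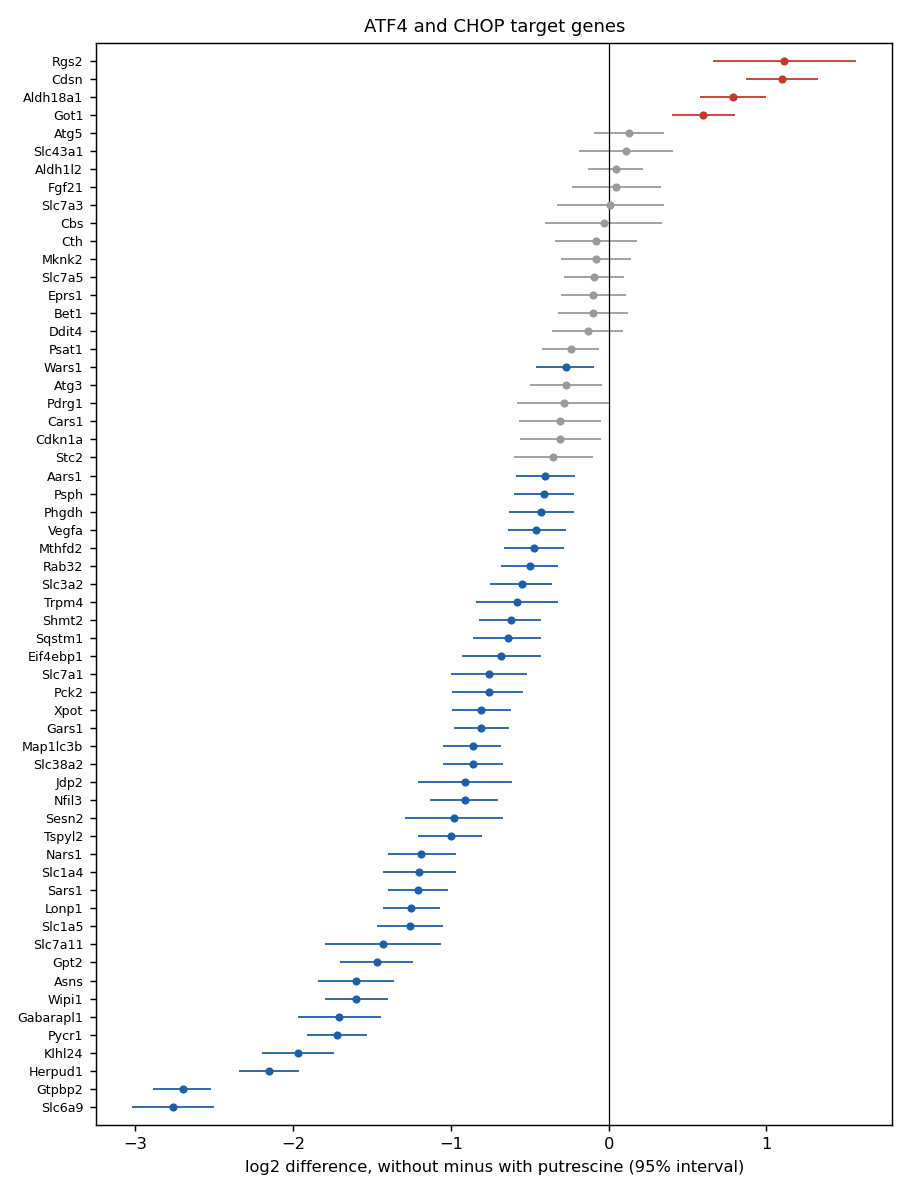
Log2 difference without minus with putrescine (x axis, 95% interval) of the 59 measured ATF4 and CHOP targets outside the members, 1 gene per row. Blue genes were called lower (37), red called higher (4) and grey did not pass (18). The rows run from Rgs2 at 1.11 to Slc6a9 at -2.76.

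Genes that act upstream, on eIF2 or on its kinases, moved in both directions. The list held genes for eIF2 kinases, eIF2 subunits, the exchange factor eIF2B and the eIF2 phosphatases. It also held Dnajc3, Dele1 and Gcn1, whose products act on or through the kinases. Of its 16 measured genes 6 rose, 3 fell and 7 did not pass, with a median of 0.14. The shares were 37.5% higher and 18.8% lower, against 15.8% and 14.2% of all named genes, so the share that fell was near the background. Eif2ak2, the gene of the double-stranded RNA sensor PKR, was at 7.84 ± 0.27 without and 6.74 ± 0.11 with putrescine (SD, n = 3 each; 2.15-fold higher, limma adjusted p = 0.000599). The exchange factor subunit gene Eif2b1 rose 1.64-fold and Eif2ak1, the gene of the heme-regulated kinase HRI, 1.43-fold. The genes of this list that fell included Dnajc3, an inhibitor of eIF2 kinases in the ER (-0.54), and Dele1, which relays mitochondrial stress to HRI (-0.38). The other was Eif2ak3, the gene of the ER stress kinase PERK (-0.29). Among the kinases, subunits, exchange factor and phosphatases themselves, Eif2ak3 was thus the only gene that fell. The calls of Dele1 (limma adjusted p = 0.0442) and Eif2ak3 (0.0315) were lost with the replicate number as a block and in 5 of the 6 leave-one-out fits, the exceptions being those without NoPUT replicate 1 for Dele1 and without +PUT replicate 2 for Eif2ak3, with adjusted p up to 0.127 and 0.097 over the alternatives. Of the genes that rose, the phosphatase genes Ppp1ca (limma adjusted p = 0.0277) and Ppp1cb (0.0306) also lost their calls with that block. Each lost its call in 5 of the 6 leave-one-out fits too, with adjusted p up to 0.0944 and 0.105 over the alternatives. Eif2ak4, the gene of the amino acid sensor GCN2, had -0.27 and did not pass (limma adjusted p = 0.0699). Of the alternatives it passed only with dim probe sets left out (limma adjusted p = 0.0403).

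Other bZIP transcription factor genes, the family to which ATF4, CHOP, ATF3 and ATF5 belong, fell in larger number than they rose. Of 39 measured outside the members 16 fell, 2 rose and 21 did not pass, with a median of -0.10. That is 41.0% lower and 5.13% higher, against 14.2% and 15.8% of all named genes. Of those that fell, Nfil3 and Jdp2 also counted among the targets above. The factors with the smallest p all fell. Crem, a cAMP-responsive factor gene, was 2.91-fold lower, Xbp1, the factor of the IRE1 branch of the unfolded protein response, 2.35-fold lower, Dbp, a clock output factor gene, 3.00-fold lower, and Nfe2l1, which controls proteasome genes, 2.29-fold lower. Jdp2, the closest relative of Atf3 among those measured, was 1.88-fold lower. Those that rose were Fosb (1.00) and Fos (0.62), components of AP-1. Their relatives Fosl2 (-1.01) and Fosl1 (-0.45), also components of AP-1, fell, so the FOS family moved in both directions. The C/EBP family genes Cebpd and Cebpe had differences of -0.10 and -0.01 and did not pass. The list also held Cebpz (-0.04, not passing), which carries a C/EBP name but encodes no bZIP protein.

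**Figure D4:**
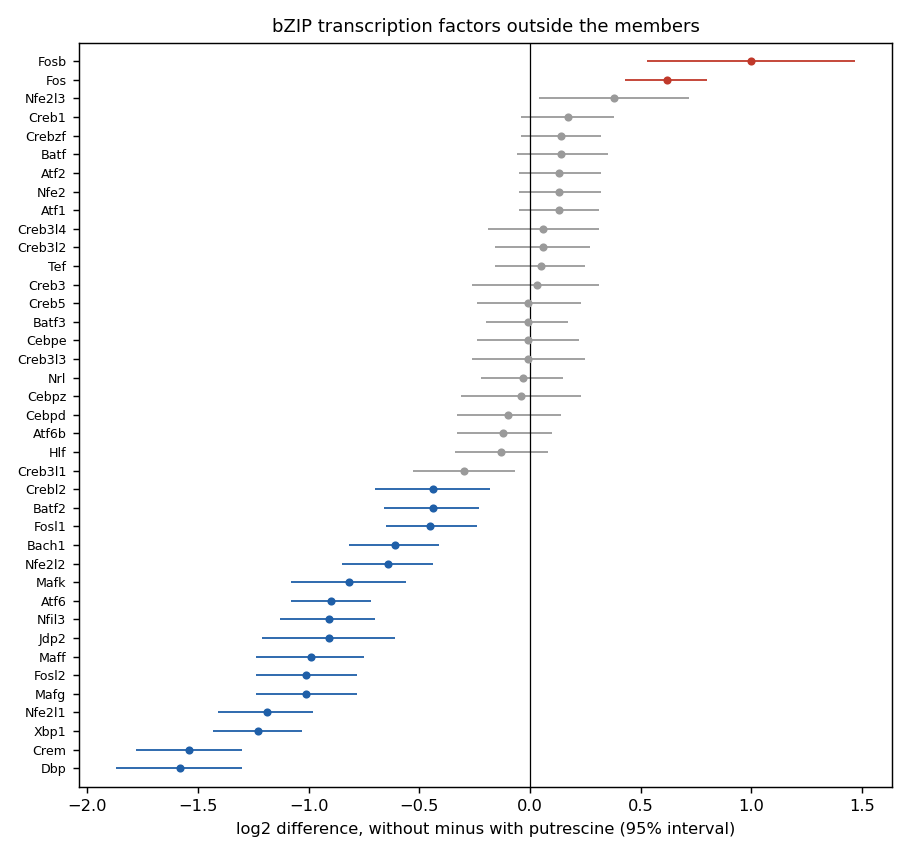
Log2 difference without minus with putrescine (x axis, 95% interval) of the 39 measured genes of the bZIP list outside the members, 1 per row. They include Cebpz, which encodes no bZIP protein. Blue genes were called lower (16), red called higher (2) and grey did not pass (21). Fosb and Fos stand at the top at 1.00 and 0.62, and Dbp at the bottom at -1.58.

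Among 7 measured paralogues of the members, Trib1 rose, Jdp2 fell and 5 did not pass. The share called, 28.6%, was near the 30.0% of all named genes. Trib1, whose product shares the pseudokinase fold of TRIB3 and directs C/EBP alpha to degradation, was at 9.01 ± 0.04 without and 7.93 ± 0.12 with putrescine (SD, n = 3 each; 2.12-fold higher, limma adjusted p = 9.73e-05), opposite to Trib3. Trib2 was at 2.70 and 2.72, below the dim mark in both groups. Chac2, the constitutive relative of Chac1, had a difference of 0.11 and did not pass (limma adjusted p = 0.458).

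In the branches of the unfolded protein response run by XBP1 and ATF6, most genes fell: of 21 measured genes 17 fell, 1 rose and 3 did not pass, with a median of -0.81. That is 81.0% lower and 4.76% higher, against 14.2% and 15.8% of all named genes. Of those that fell, Xbp1 and Atf6 also counted among the bZIP factors, Herpud1 among the targets and Dnajc3 among the eIF2 genes. The counts of these lists are thus not independent. Besides Herpud1, the smallest p belonged to Sel1l, of ER-associated degradation (2.89-fold lower), Dnajb9, a co-chaperone of BiP (2.83-fold lower), and Sdf2l1 (2.74-fold lower). The gene that rose was Sec61b (0.40), a subunit gene of the translocon, whose call was lost without +PUT replicate 2 and without NoPUT replicate 2 (limma adjusted p up to 0.0623 over the alternatives). Of 8 genes tied to CHOP in cell death and ER oxidation, Ero1b, an ER oxidase gene, and Bcl2l1, the gene of the survival factor BCL-XL, fell by 0.79 and 0.50, Bak1, a pro-death gene, rose by 0.88 and 5 did not pass. The share called there, 37.5%, compares with 30.0% of all named genes. Bcl2l11, the gene of the CHOP target BIM, had 0.19 (limma adjusted p = 0.224).

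Of 13 genes whose products modify or degrade ATF4 or CHOP protein, Csnk2b, a casein kinase subunit gene (0.51), and Egln1, a prolyl hydroxylase gene (0.47), rose, Rps6ka3, the gene of the kinase RSK2 (-0.28), fell and 10 did not pass. That is 23.1% called, against 30.0% of all named genes. The call of Rps6ka3 was lost in all 6 leave-one-out fits.

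**Figure D5:**
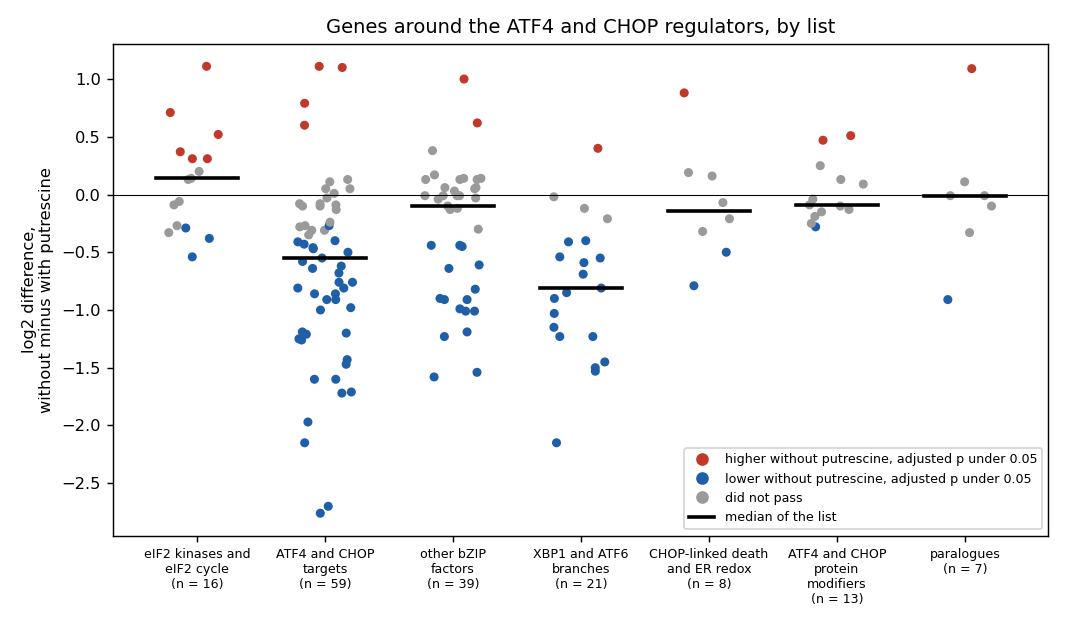
Log2 difference without minus with putrescine (y axis) of genes around the members in 7 lists (x axis, number of measured genes in brackets), 1 point per gene, with the list median as a black line. Points are red where called higher, blue where called lower and grey where not called. The medians are -0.55 for ATF4 and CHOP targets and -0.81 for the XBP1 and ATF6 branches, and 0.14 for the eIF2 genes.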

How the data were processed

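Per the labels' protocols, total RNA (300 ng) from 4000000 cells of each of 6 cultures was hybridised to Affymetrix whole-transcript arrays. The deposited table gives a log2 value for every probe set on every array. Its authors worked with Transcriptome Analysis Console, as named in the submitters' processing notes. Settings, version and genome build were not stated in the sources read here. The base of the logarithm is not stated, and folds assume base 2. Values ran from 1.55 to 13.66 with array medians of 4.92 to 4.98, so the arrays looked normalized to each other, which would hide a change in total RNA per cell. Of 29700 probe sets 16481 had 1 symbol in the platform annotation, 793 several and 12426 none. All 8 member genes matched the RefSeq table by Entrez identifier.

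Limma 3.58.1 (R 4.3.3) was fitted to all probe sets with group as its only term (lmFit, eBayes defaults, two-sided, Benjamini-Hochberg threshold 0.05). Genes in lists were represented by their brightest probe set. Members and lists were chosen with earlier results of these data known. The rule for named genes took all members, up to 4 per list by smallest p, up to 4 that passed against the direction of most called genes of their list, and the 3 closest profiles to Ddit3 and to Trib3. A few others, identified in the text, and the neighbouring genes were added after their values were seen. Promoter motifs were not analysed here. The number of arrays limits the precision. The labels call the cultures biological triplicates. The limma p-values set the group difference against the spread between them, moderated by the spread over all probe sets.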

Additional observations from a re-analysis of the deposited data

How the results depend on the processing

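The direction of all 9 member probe sets was kept under the 11 alternatives run: quantile scaling, a common array median, dim probe sets left out, a trended and robust limma prior, the replicate number as a block, and each array left out in turn. The calls were kept in 98 of 99 such fits. In the other, the trended and robust prior, Atf4 passed with its difference of 0.16, which made 2 member probe sets called higher. Counts of called genes moved most in the short lists. Of the eIF2 genes 3 fell, but 5 with dim probe sets left out or probe sets averaged per gene, 1 with the replicate block, and 1 to 2 with 1 array left out. In the same list 6 rose, but 5 with quantile scaling, 4 with the replicate block, and 4 to 5 with 1 array left out. Of the genes that modify ATF4 or CHOP protein 1 fell, but 0 with a common median or the replicate block, 0 in every fit with 1 array left out, 2 with quantile scaling, with dim probe sets left out or with averaged probe sets, and 3 with the trended prior. Of the paralogues 1 fell, but 2 under quantile scaling, the trended prior, averaged probe sets or without dim ones. Of the XBP1 and ATF6 genes 1 rose, and 0 to 1 with 1 array left out. The targets called lower numbered 36 to 42 throughout. The labels do not say that equal replicate numbers share a batch, and the deviations of equally numbered cultures correlated at 0.0452, -0.1007 and -0.0204, so the numbers were not taken to pair them. With the replicate block 7 member probe sets were called lower and 1 higher, as without it, and 2951 probe sets in all were lower and 3457 higher, against 3325 and 3915 without the block. Why these counts moved was not tested.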
